A study of Mus musculus with 12 samples.

Results

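Unstimulated bone marrow-derived macrophages (BMDMs) of Nlrp3-/- mice were compared with those of wild-type mice by RNA sequencing. The members were the autosomal genes with at least 1 FPKM in at least 3 of the 12 libraries, which left 12174 of the 55335 genes in the table. FPKM is the number of fragments per kilobase of transcript, divided by the depth of its library. The comparison used 3 libraries of untreated wild-type BMDMs (WT control) and 3 libraries of untreated Nlrp3-/- BMDMs (Nlrp3-/- control). For each genotype, 3 further libraries came from BMDMs given lipopolysaccharide (LPS) for 4 hours and then ATP for 30 minutes according to the sample labels. The study's methods describe other times for the LPS+ATP treatment in its cell experiments. The mice were C57BL/6 for the wild type and a knockout line from another supplier for Nlrp3-/-, and neither the labels nor the methods say that the mice were littermates. Bone marrow was grown with macrophage colony-stimulating factor, and the cells that adhered were taken as BMDMs, with no sort. No label says whether the replicates came from separate mice or cultures, so the p-values below measure only the spread between these libraries, which may be technical.

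NLRP3 is a cytosolic sensor that, after priming and a danger signal such as ATP, assembles with the adaptor ASC and caspase-1 into the inflammasome, which matures interleukin-1β (IL-1β). Macrophage colony-stimulating factor drives marrow progenitors into macrophages. Marrow also holds granulocyte precursors, which store enzymes in granules made in a fixed order, and stromal cells, which adhere to plastic and lay down collagen. An unsorted adherent culture can contain RNA of all of these cells. In RNA from a whole culture, fewer cells of a type and less RNA per cell cannot be told apart.

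Nlrp3 (chromosome 11, 59541568 to 59566956, plus strand, GRCm38) was 9.24, 9.71 and 10.1 FPKM in the WT control libraries and was listed at 0 in all 3 Nlrp3-/- control libraries. After LPS+ATP it was 32.1, 33.0 and 33.6 FPKM in the wild type and was again listed at 0 in all 3 Nlrp3-/- libraries. The labels therefore matched the level of the targeted gene in every library. Other genes separated the genotypes as well. Xist, the RNA of the inactive X chromosome, was 0.0416, 0.0195 and 0.0228 FPKM in WT control and 56.3, 51.1 and 54.1 FPKM in Nlrp3-/- control. The Y-linked gene Ddx3y was 10.9, 8.62 and 7.72 FPKM in WT control and was listed at 0 in the 3 Nlrp3-/- control libraries. Nnt, a mitochondrial transhydrogenase gene that differs between C57BL/6 substrains, was 10.2, 7.67 and 10.3 FPKM in WT control and 1.47, 1.17 and 0.827 FPKM in Nlrp3-/- control. Another identifier of the same name overlaps 47.4% of the exonic bases of this Nnt identifier, so the split of reads between them is uncertain. Loss of Nlrp3, the sex-linked transcripts, the substrain marker and the source of the mice thus changed together, and their effects cannot be told apart in these libraries.

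The 12174 members were compared on log2(FPKM + 1) with limma, in 1 fit of the 4 groups, and p-values were adjusted by the Benjamini-Hochberg method over all 12622 tested genes. A gene was called when its adjusted p was under 0.05 and its log2 difference was at least 1 in either direction. All log2 differences below are Nlrp3-/- minus WT on this scale, on which the change of a gene near 0 FPKM appears smaller than its ratio. In the control cultures 735 members were called higher in Nlrp3-/- (6.04%) and 81 were called lower (0.665%). The libraries of the groups did not overlap for 734 of the 735 and for 80 of the 81, and they did not overlap for 6822 of all members (56.0%). The genes called higher had a median of 1.32 FPKM in WT control and 5.85 FPKM in Nlrp3-/- control, whereas those called lower had medians of 9.38 and 2.98 FPKM. Among the genes called higher, 287 were under 1 FPKM on average in WT control and 60 were at 10 FPKM or more. The rise was at least 2 for 109 genes and at least 3 for 11, and the fall was at least 2 for 8 genes and at least 3 for 4. Protein-coding genes made up 700 of the 735 and 55 of the 81. Of the 106 members within 5 Mb of Nlrp3, 5 were called higher and 2 lower, which is 6.6%, and the share called ranged from 4.48% to 10.5% over the autosomes.

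The excess of rises over falls depended in part on the scaling. The median difference over all members was 0.088 and 64.0% of them were positive. When each library was rescaled by the median ratio over genes, that median shifted by -0.154 to -0.066, and 554 members were called higher and 139 lower. The rises were then 79.9% of the calls, against 90.1% on the FPKM as deposited. List medians whose sign differed between the scalings are given below with both values. Over the control libraries Pearson's r over the tested genes was 0.99 to 0.991 within a group and 0.946 to 0.949 between groups, and the first principal component, which separated the genotypes, held 80.4% of the variance. Relative depth, estimated from the size of the smallest nonzero steps in each library, ran from 1.0 to 1.22 over the 12 libraries, and the share of FPKM from mitochondrial genes was 6.17% to 7.35% in WT control and 7.47% to 8.08% in Nlrp3-/- control.

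**Figure D1:**
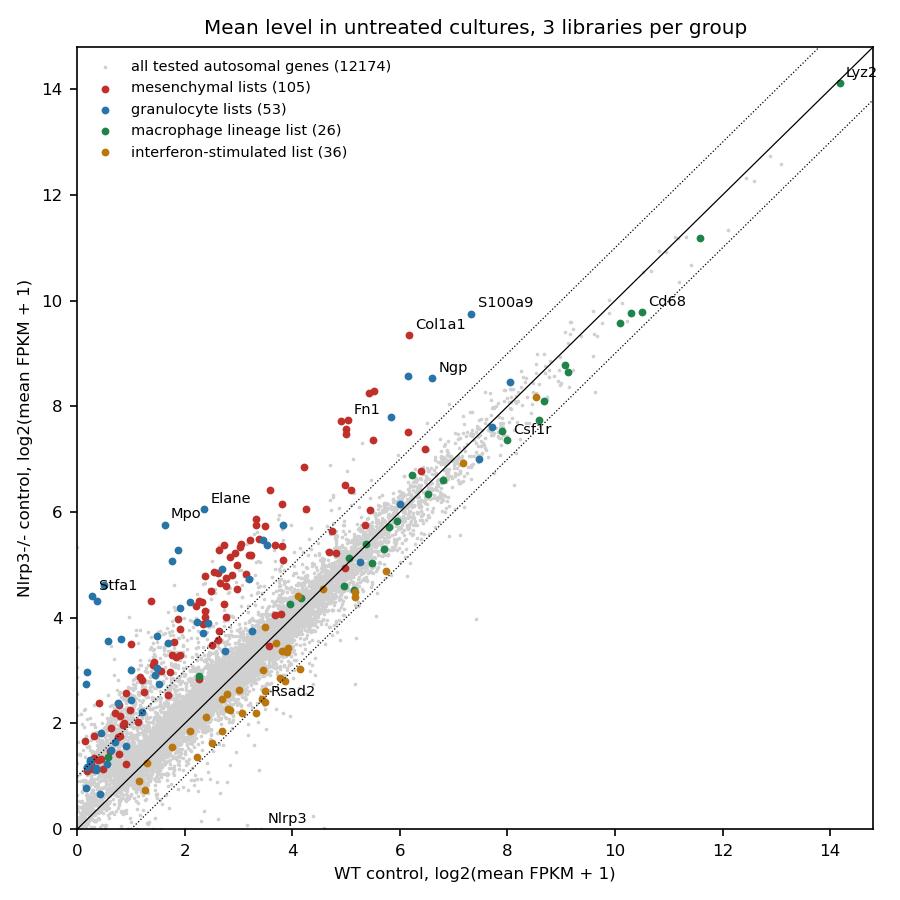
Each point is a tested autosomal gene, with log2(mean FPKM + 1) in WT control on the x axis and in Nlrp3-/- control on the y axis (3 libraries each). The solid line marks equal levels and the dotted lines a log2 difference of 1. Mesenchymal genes (105, red) and granulocyte genes (53, blue) lie mostly above the upper dotted line, the macrophage lineage genes (26, green) lie near the solid line and most interferon-stimulated genes (36, orange) lie below it.

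The label of the cells was checked against markers of macrophages, mesenchymal cells and granulocytes. The 8 macrophage markers, which are on 9 gene identifiers, summed to 20000 to 21100 FPKM per library in WT control and 19100 to 19300 FPKM in Nlrp3-/- control, and 0 of the 9 identifiers were called. Most of that sum was Lyz2, which granulocytes express as well. Without Lyz2 the macrophage markers summed to 2230 to 2300 FPKM in WT control and 1500 to 1520 FPKM in Nlrp3-/- control, a ratio of 0.668. The 10 mesenchymal markers summed to 166 to 171 FPKM in WT control and 1200 to 1220 FPKM in Nlrp3-/- control, a ratio of 7.17, and 8 of the 10 were called higher. The 12 granulocyte markers summed to 348 to 385 FPKM and 1910 to 1950 FPKM, a ratio of 5.22, and 10 of the 11 tested were called higher. In WT control the mesenchymal markers Thy1, Twist1 and Lum and the granulocyte markers Ly6g and Cxcr2 were under 1 FPKM, and no marker of the 3 lists was at 0 in all 6 control libraries. With Lyz2 the macrophage sum was the highest of the 3 in both genotypes. Without it the macrophage sum was the highest in WT control and lay under the granulocyte sum in Nlrp3-/- control. Of that granulocyte sum S100a9, S100a8 and Ngp held 862, 379 and 370 FPKM on average. The sums are over different genes, so their order does not rank the amounts of RNA from each cell type. The mesenchymal and granulocyte marker sums were both higher in every Nlrp3-/- control library than in every WT control library. The part of these other cells in the differences of the macrophage genes was not tested.

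**Figure D2:**
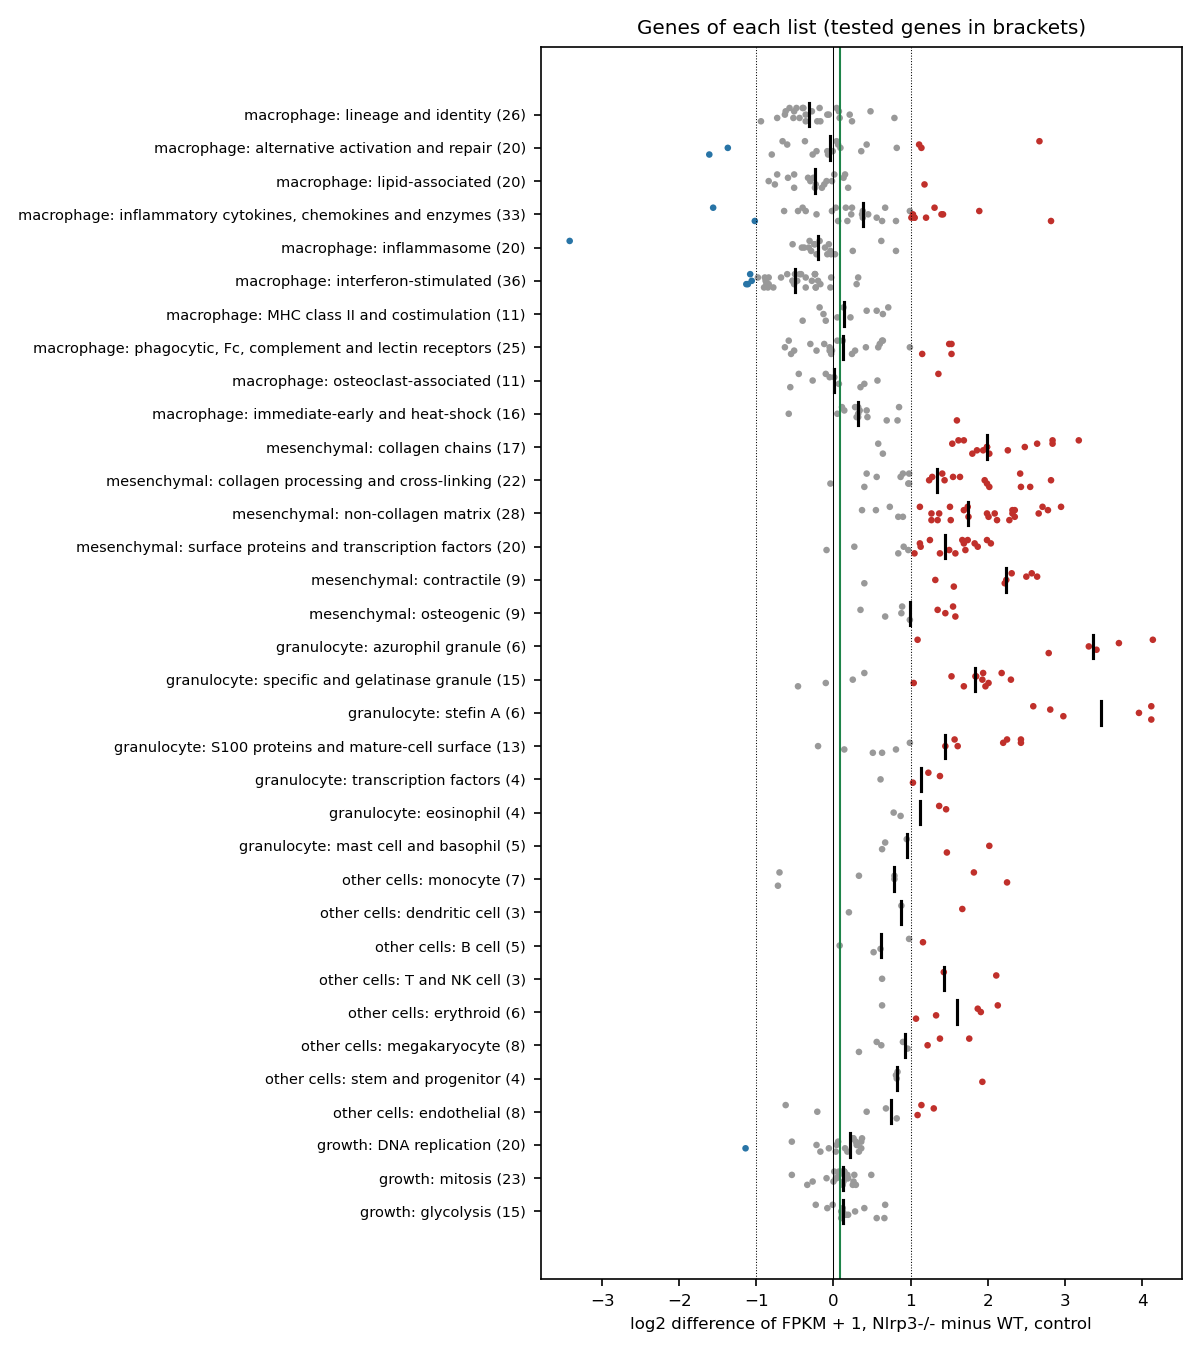
Each point is a tested gene of a list, placed by its log2 difference in FPKM + 1 between Nlrp3-/- control and WT control (x axis), with 1 row per list and the number of tested genes in brackets. Red and blue points are genes called higher and lower, grey points are not called, black bars are list medians, and the green line is the median of all members (0.088). Most mesenchymal and granulocyte rows have their medians to the right of the dotted line at 1, while those of the osteogenic (0.99) and the mast cell and basophil genes (0.95) lie just left of it, and the row of interferon-stimulated genes is centred at -0.51.

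Granulocyte transcripts were among the largest rises. Of 75 listed genes 53 were tested, and 37 of these (69.8%) were called higher and 0 lower, with a median difference of 1.57. Over all members 6.04% were called higher and 0.665% lower. The lists were chosen with earlier results of these data known. Without the fold limit 50 of the 53 were higher and 3 lower at a limma adjusted p under 0.05. By that rule 33.3% of all members were higher and 14.5% lower. The sum over the list was 1210 to 1260 FPKM per library in WT control and 3250 to 3300 FPKM in Nlrp3-/- control. Of the 53, 21 were under 1 FPKM in WT control and 7 reached 1 FPKM only in the Nlrp3-/- control libraries, and such genes could enter the test only by being higher there. At 1 FPKM or more in all 3 WT control libraries, a limit chosen after seeing the data under which no gene enters through its Nlrp3-/- level, were 31 of the 53, of which 24 were called higher and 0 lower. Of all 10410 members at that level 3.86% were called higher and 0.778% lower.

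Azurophil granules are the first granules made, at the promyelocyte stage, and all 6 genes of their list rose, with a median of 3.36. Mpo encodes myeloperoxidase, which makes hypochlorous acid. Mpo was 2.02, 2.14 and 2.09 FPKM in WT control and 58.4, 50.5 and 51.0 FPKM in Nlrp3-/- control. Its difference was 4.14 with a standard error (SE) of 0.0612 (limma, adjusted p = 1.33e-12), and the libraries of the groups lay far apart. The other leading members were 3 serine proteases of the same granule. Elane, which encodes neutrophil elastase, was 4.32, 3.53 and 4.57 FPKM in WT control and 65.8, 66.5 and 64.2 FPKM in Nlrp3-/- control, a difference of 3.7 (SE 0.12, limma adjusted p = 5.81e-10). Prtn3, which encodes proteinase 3, was 2.09, 2.61 and 2.48 FPKM against 32.1, 29.9 and 36.2 FPKM, a difference of 3.31 (SE 0.0926, limma adjusted p = 2.12e-10). Ctsg, which encodes cathepsin G, was 2.36, 3.14 and 2.55 FPKM against 37.1, 38.5 and 38.2 FPKM, a difference of 3.41 (SE 0.11, limma adjusted p = 4.96e-10). In each of these genes every Nlrp3-/- control library was at least 10 times the level of every WT control library. Ms4a3, a membrane protein of granulocyte and monocyte progenitors, rose from 0.764 ± 0.31 to 11.1 ± 0.211 FPKM (SD, n = 3), a difference of 2.79 (limma adjusted p = 2.64e-08). Prss57, a further protease of these granules, was the remaining member called. Its difference of 1.09 became 0.94 under median-ratio scaling, where 5 of the 6 were called. Ms4a3 and Prss57 averaged under 1 FPKM in WT control and in both LPS+ATP groups. They passed the filter only with the Nlrp3-/- control libraries, so the count of 6 is set in part by the filter.

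The windows of 250 bases before the RefSeq start sites of the 4 leading azurophil genes are shown because these genes rose together and because ETS factors such as PU.1 and C/EBP factors are known to act on granule genes. Sequences are from RefSeq (GRCm38.p6), 5′ to 3′ on the strand of the gene, and capitals mark AGGAAGT, an ETS motif searched on both strands.
Mpo, chr11:87793534-87793783, plus strand: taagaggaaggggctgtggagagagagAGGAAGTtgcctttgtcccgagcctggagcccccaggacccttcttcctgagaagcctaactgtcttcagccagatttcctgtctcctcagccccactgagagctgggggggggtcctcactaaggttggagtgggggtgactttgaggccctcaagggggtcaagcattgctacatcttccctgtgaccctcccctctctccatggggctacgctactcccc
Elane, chr10:79886062-79886311, plus strand: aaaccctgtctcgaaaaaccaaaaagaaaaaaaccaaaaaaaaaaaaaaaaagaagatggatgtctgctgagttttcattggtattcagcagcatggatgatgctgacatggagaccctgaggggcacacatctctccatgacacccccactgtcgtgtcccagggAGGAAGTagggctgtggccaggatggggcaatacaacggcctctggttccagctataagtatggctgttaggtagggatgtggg
Prtn3, chr10:79879417-79879666, plus strand: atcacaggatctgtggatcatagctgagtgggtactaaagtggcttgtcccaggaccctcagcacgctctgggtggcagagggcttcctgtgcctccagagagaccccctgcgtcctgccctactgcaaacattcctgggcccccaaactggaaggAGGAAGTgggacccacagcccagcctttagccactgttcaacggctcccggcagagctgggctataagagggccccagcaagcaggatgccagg
Ctsg, chr14:56102575-56102824, minus strand: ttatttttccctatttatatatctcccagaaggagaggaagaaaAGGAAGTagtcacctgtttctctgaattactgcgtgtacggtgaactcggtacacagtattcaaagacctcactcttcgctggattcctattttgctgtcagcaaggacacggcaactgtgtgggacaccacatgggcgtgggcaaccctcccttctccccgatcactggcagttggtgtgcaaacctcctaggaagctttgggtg
The motif AGGAAGT occurred 1 time in each window, at 223 to 217 bases before the start in Mpo, 84 to 78 in Elane, 94 to 88 in Prtn3 and 206 to 200 in Ctsg. It was present in 7.69% of the 32851 RefSeq windows of the same length. The C/EBP motif TTGCNNAA, searched on both strands and present in 9.56% of those windows, had 0 matches in the 4 windows. These motifs were chosen with the results known, and a match describes letters in a window, not binding.

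The stefin A genes, which encode small cytosolic inhibitors of cysteine proteases and lie in a cluster on chromosome 16, were also higher. All 6 tested of the 8 listed were called higher, with a median of 3.47. The 8 together summed to only 1.56 to 1.74 FPKM per library in WT control. Genes under 1 FPKM in the wild type could enter the test only by being higher in Nlrp3-/-, so this count is not read as a result. Stfa1 was 0.209, 0.267 and 0.173 FPKM in WT control and 20.9, 19.5 and 20.2 FPKM in Nlrp3-/- control, a difference of 4.12 (SE 0.1, limma adjusted p = 8.06e-11). BC100530 was 0.189, 0.551 and 0.513 FPKM against 23.7, 21.1 and 25.9 FPKM (4.12, limma adjusted p = 4.47e-10), and Stfa2l1 rose from 0.294 ± 0.295 to 18.8 ± 0.746 FPKM (SD, n = 3). All of these were under 0.6 FPKM in every WT control library. The transcripts of BC100530 and Stfa1 match at 95% identity or more over 99.8% of BC100530 and the whole of Stfa1, and those of Stfa2 and Stfa2l1 over 77.9% and 87.8%, so the split of reads within each pair is uncertain.

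Specific and gelatinase granules are made later, at the myelocyte stage and after. All 15 listed genes were tested, 11 were called higher and 0 lower, and the median was 1.84. Without the fold limit 13 of the 15 were higher and 2 lower at a limma adjusted p under 0.05. By that rule 33.3% of all members were higher and 14.5% lower. Ngp, neutrophilic granule protein, was 92.5, 101 and 95.2 FPKM in WT control and 374, 371 and 364 FPKM in Nlrp3-/- control, a difference of 1.93 (SE 0.0516, limma adjusted p = 1.54e-10). Ltf, which encodes the iron-binding lactoferrin, was 12.5, 13.8 and 13.2 FPKM against 53.2, 54.4 and 52.4 FPKM (1.94, limma adjusted p = 2.5e-09), and Camp, which encodes the cathelicidin peptide, was 7.99, 7.89 and 8.72 FPKM against 27.0, 24.7 and 24.9 FPKM (1.53). Lcn2, which encodes the siderophore-binding lipocalin 2, rose from 9.96 ± 0.268 to 43.2 ± 1.75 FPKM, and Mmp9, which encodes gelatinase B, rose from 10.6 ± 1.15 to 40.3 ± 0.98 FPKM (SD, n = 3). Not every gene of the list passed the fold limit. Olfm4 (1.04) was called, and its call was lost under median-ratio scaling (0.87) and without WT control replicate 2 (0.99) or WT control replicate 3 (0.97). Mmp8, which encodes neutrophil collagenase, was 272, 260 and 259 FPKM against 340, 361 and 347 FPKM, a difference of 0.4 (limma adjusted p = 1.96e-06) that was not called.

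S100a8 and S100a9, which form calprotectin, the main cytosolic protein of neutrophils, were abundant and rose. S100a9 was 145, 160 and 173 FPKM in WT control and 871, 849 and 865 FPKM in Nlrp3-/- control, and S100a8 was 69.1, 67.9 and 72.3 FPKM against 392, 375 and 372 FPKM. Each had a difference of 2.43 (limma adjusted p = 3.1e-10 and 1.63e-11). In their list of S100 proteins and surface proteins of mature cells, 7 of 13 tested genes were called higher, with a median of 1.45. The formyl peptide receptor genes Fpr1 (5.47 ± 1.38 to 29.4 ± 2.95 FPKM) and Fpr2 (3.29 ± 0.467 to 18.7 ± 0.705 FPKM, SD, n = 3) were among them, and Fpr2 shares 91.9% of its transcript with the near copy Gm5966. Without the fold limit 12 of the 13 tested genes of that list were higher and 1 lower at a limma adjusted p under 0.05. By that rule 33.3% of all members were higher and 14.5% lower. The list summed to 333 to 375 FPKM in WT control and 1410 to 1450 FPKM in Nlrp3-/- control. Within it the neutrophil genes Ly6g and Cxcr2 were low in both genotypes. Ly6g was 0.0529, 0.0697 and 0 FPKM against 0.553, 0.311 and 0.781 FPKM and was not tested, and Cxcr2, the receptor by which neutrophils leave the marrow, was 0.31, 0.287 and 0.242 FPKM against 1.17, 1.3 and 1.26 FPKM (0.81, not called).

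Transcription factors of granulocyte precursors were higher at low levels, and 3 of 4 were called. Gfi1 and Myb averaged under 1 FPKM in WT control, so those libraries alone could not bring them into the test. The count is therefore set in part by the filter. Cebpe, which drives specific granule genes, was 1.4, 2.16 and 2.03 FPKM in WT control and 5.93, 5.61 and 5.48 FPKM in Nlrp3-/- control (1.23, limma adjusted p = 1.9e-06). Gfi1, a repressor needed for neutrophil development, rose from 0.353 ± 0.0398 to 2.54 ± 0.277 FPKM, and Myb, a factor of immature progenitors, from 0.183 ± 0.0655 to 1.41 ± 0.111 FPKM (SD, n = 3). Myb was 1.03 above WT, close to the limit of 1, and its call was lost under median-ratio scaling and without Nlrp3-/- control replicate 1 or WT control replicate 3.

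Genes of other granulocytes rose to smaller levels. For eosinophils, 2 of 4 tested genes were called. Prg2, which encodes major basic protein, was 4.3, 4.09 and 3.85 FPKM against 12.1, 12 and 12.3 FPKM (1.37, limma adjusted p = 1.08e-07), and Ear2, an eosinophil ribonuclease that shares 99.7% of its transcript with Ear1, rose from 4.39 ± 0.192 to 13.9 ± 1.5 FPKM (SD, n = 3), while Epx, which encodes eosinophil peroxidase, was at most 0.557 FPKM. For mast cells and basophils, 2 of 5 tested of 16 listed were called. They were the basophil proteases Mcpt8 (0.994 ± 0.157 to 7.1 ± 1.01 FPKM) and Prss34 (1.73 ± 0.382 to 6.51 ± 0.369 FPKM, SD, n = 3). Mcpt8 passed the filter only with the Nlrp3-/- libraries, so this count is set in part by the filter too. The mast cell protease genes Mcpt2, Mcpt4, Cma1 and Tpsb2 were listed at 0 in all 6 control libraries.

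**Figure D3:**
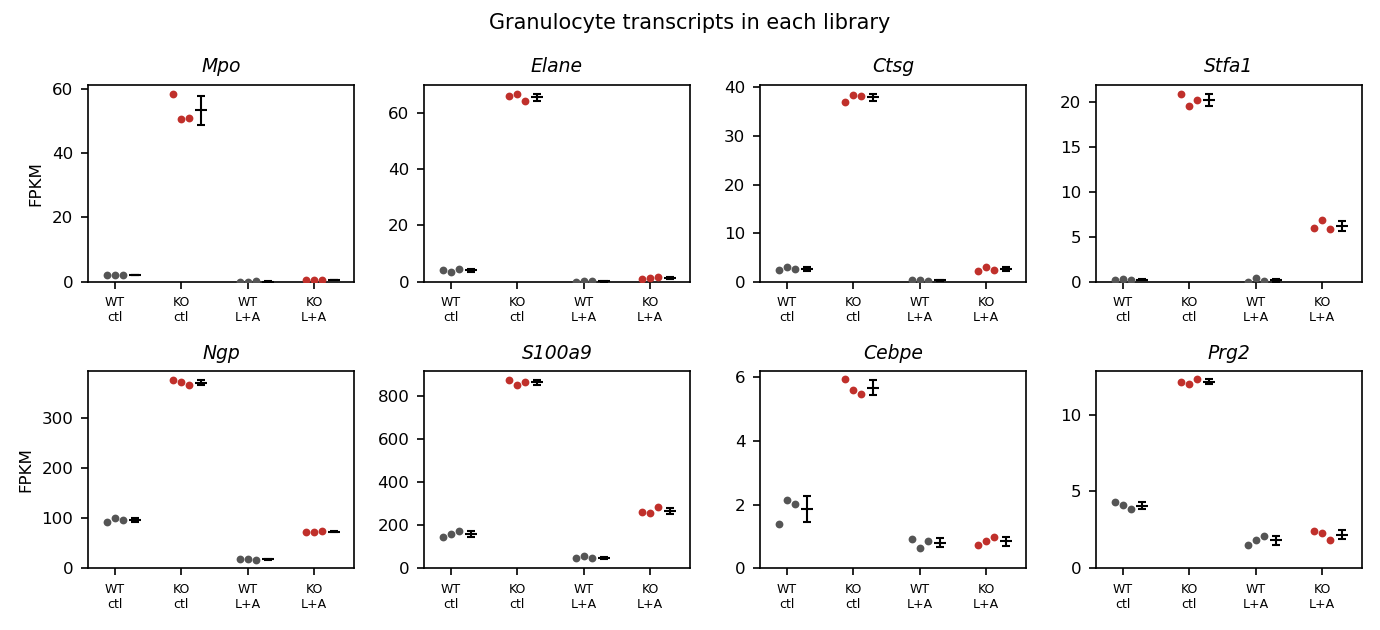
FPKM (y axis) of 8 granulocyte genes in each library, by group (x axis; WT, wild type in grey; KO, Nlrp3-/- in red; ctl, control; L+A, LPS+ATP). Points are libraries and bars are the mean ± SD of 3 libraries. In all 8 panels the Nlrp3-/- control libraries are above the WT control libraries, and Mpo, Elane and Ctsg are under 4 FPKM in every LPS+ATP library.

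Mesenchymal transcripts were also among the rises. Of 146 listed genes 105 were tested, 78 (74.3%) were called higher and 0 lower, and the median difference was 1.58. Over all members 6.04% were called higher and 0.665% lower. These lists too were chosen with earlier results of these data known. The list summed to 1200 to 1230 FPKM per library in WT control and 4800 to 4830 FPKM in Nlrp3-/- control. Of the 105, 24 were under 1 FPKM in WT control and 6 reached 1 FPKM only in the Nlrp3-/- control libraries. At 1 FPKM or more in all 3 WT control libraries were 81 of the 105, of which 65 (80.2%) were called higher and 0 lower. Of all members at that level 3.86% were called higher and 0.778% lower.

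Collagen chains, the main fibres of connective tissue, rose together, and 15 of 17 tested collagen genes were called higher, with a median of 1.99. Col1a1, which encodes the main chain of type I collagen, was 70.1, 72.1 and 71.2 FPKM in WT control and 652, 660 and 643 FPKM in Nlrp3-/- control. Its difference was 3.18 (SE 0.0216, limma adjusted p = 6.1e-15), a ratio of 9.16. Col1a2, its partner chain, was 41.3, 42.2 and 41.6 FPKM against 305, 306 and 301 FPKM (2.84, limma adjusted p = 7.25e-14). Both chains of type I collagen were thus over 7 times higher in every Nlrp3-/- control library. Type III collagen (Col3a1) rose from 30.9 ± 1.2 to 177 ± 1.98 FPKM, and the type V chains Col5a1 and Col5a2, which set fibril width, rose from 11.0 ± 0.145 to 84.9 ± 0.235 FPKM and from 17.5 ± 0.471 to 114 ± 0.655 FPKM (SD, n = 3). Col6a1, of beaded-filament type VI collagen, rose from 44.1 ± 1.01 to 163 ± 0.678 FPKM. Col18a1, of basement membranes, was 3.79 ± 0.154 and 6.2 ± 0.594 FPKM (0.58) and was not called. Col2a1 and Col10a1, the cartilage collagens, did not reach the level for the test.

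The enzymes that fold and cross-link collagen rose with the chains, with 13 of 22 called and a median of 1.35. Lox, which encodes the cross-linking lysyl oxidase, was 32.0, 26.8 and 28.0 FPKM in WT control and 204, 220 and 206 FPKM in Nlrp3-/- control, a difference of 2.82 (SE 0.0551, limma adjusted p = 1.59e-11). Plod2, a lysyl hydroxylase, was 4.63, 3.65 and 4.19 FPKM against 27.4, 25.9 and 26.8 FPKM (2.43, limma adjusted p = 1.1e-10). Bmp1, the proteinase that trims procollagen, rose from 6.86 ± 0.253 to 30.9 ± 0.377 FPKM (SD, n = 3). Serpinh1, the collagen chaperone, rose from 30.4 ± 1.01 to 90.8 ± 1.0 FPKM (SD, n = 3, limma adjusted p = 0.00144). Loxl2, a relative of Lox, was 9.01 ± 0.178 and 57.7 ± 1.47 FPKM (SD, n = 3), but its reads may be shared with the near copy Gm21451. That predicted gene was listed at 0 in all 3 WT control libraries, was 39.5, 39.9 and 39.9 FPKM in Nlrp3-/- control, and had the largest fitted rise of all members (5.35), while it was 0.0396 FPKM on average in Nlrp3-/- LPS+ATP. It matches Loxl2 at 95% identity or more over 84.6% of its transcript, so its level is uncertain.

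Of the non-collagen matrix genes, 23 of 28 tested were called higher, with a median of 1.75. Fn1, which encodes the cell-adhesion protein fibronectin, was 30.6, 32.7 and 31.7 FPKM in WT control and 208, 219 and 211 FPKM in Nlrp3-/- control (2.71, limma adjusted p = 7.06e-13). Sparc, which encodes a collagen-binding glycoprotein, was 42.1, 47.2 and 44.7 FPKM against 308, 315 and 312 FPKM (2.78, limma adjusted p = 8.42e-13). Postn, which encodes periostin, a matrix protein of fibroblasts and periosteum, was 1.56, 1.55 and 1.62 FPKM against 18.7, 19.1 and 18.9 FPKM (2.95, limma adjusted p = 6.43e-13). In these 3 genes the SD within a group was under 3 percent of the mean in Nlrp3-/- control. Smaller rises were seen for Thbs1, which encodes thrombospondin 1 (70.4 ± 2.4 to 183 ± 0.306 FPKM), and for the small proteoglycan gene Dcn (13.1 ± 0.502 to 33.0 ± 0.66 FPKM, SD, n = 3).

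Contractile genes, as expressed by myofibroblasts, followed with 8 of 9 called and a median of 2.24. Acta2, which encodes smooth muscle actin, was 29.7, 31.5 and 31.2 FPKM in WT control and 189, 189 and 186 FPKM in Nlrp3-/- control (2.57, limma adjusted p = 3.39e-13). Tagln, an actin-binding protein of smooth muscle, rose from 5.23 ± 0.29 to 37.7 ± 1.04 FPKM (SD, n = 3), with 62.4% of its exonic bases overlapped by Gm48529. Among surface proteins and transcription factors, 15 of 20 were called, with a median of 1.44. The growth factor receptor Pdgfrb was 5.46, 6.03 and 5.78 FPKM against 22.7, 23.2 and 23.3 FPKM (1.83, limma adjusted p = 2.31e-11) and its relative Pdgfra was 1.99, 2.32 and 2.58 FPKM against 6.71, 7.05 and 6.73 FPKM (1.25). Both receptors, which mark stromal and perivascular cells, did not overlap between the groups, as for 56.0% of all members. Cxcl12, the chemokine by which marrow stroma retains blood progenitors, rose from 5.83 ± 0.3 to 26.1 ± 0.711 FPKM, and the mesenchymal transcription factor gene Prrx1 from 2.78 ± 0.438 to 8.83 ± 0.376 FPKM (SD, n = 3).

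Among the mesenchymal calls, those of Mfap2 (0.96), Kitl (0.93), Lepr (0.9) and Zeb1 (0.97) were lost under median-ratio scaling.

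Osteogenic genes were mostly low. Of 17 listed 9 were tested and 4 were called higher, namely Alpl, Tnfsf11, Tnfrsf11b and Pth1r. Alpl, which encodes tissue alkaline phosphatase, was 3.88, 3.93 and 4.39 FPKM in WT control and 14.1, 13.7 and 13.7 FPKM in Nlrp3-/- control (1.55, limma adjusted p = 3.56e-09). Runx2, the master factor of osteoblasts, was 1.2 ± 0.0429 and 3.08 ± 0.414 FPKM (0.88, not called). The osteoblast genes Bglap and Sp7 did not reach the level for the test, and of the 8 adipocyte genes listed none did.

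**Figure D4:**
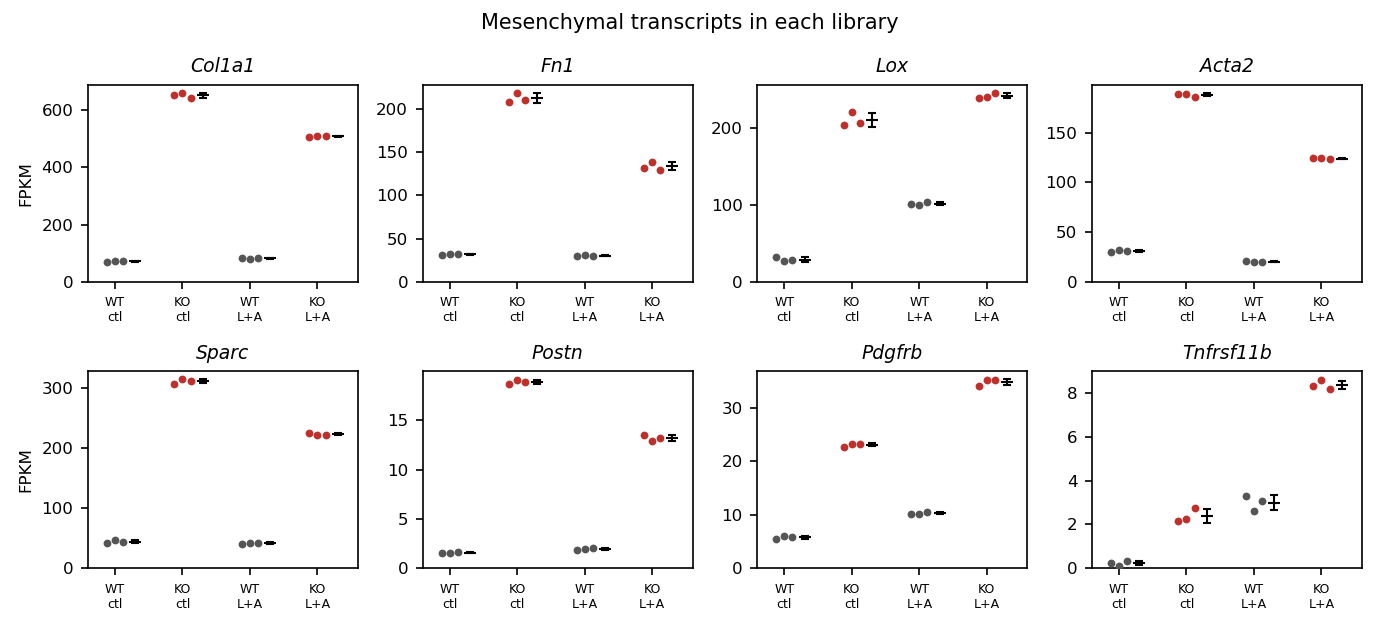
FPKM (y axis) of 8 mesenchymal genes in each library, by group (x axis; WT, wild type in grey; KO, Nlrp3-/- in red; ctl, control; L+A, LPS+ATP). Points are libraries and bars are the mean ± SD of 3 libraries. The Nlrp3-/- libraries are above the wild-type libraries in both the control and the LPS+ATP cultures in all 8 panels.

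Macrophage programs differed less. Of 234 listed genes 218 were tested, and 20 (9.17%) were called higher and 9 (4.13%) lower. The list median was -0.07, and it was -0.26 under median-ratio scaling. Over all members 6.04% were called higher and 0.665% lower. The list summed to 53400 to 55000 FPKM per library in WT control and 44800 to 45000 FPKM in Nlrp3-/- control. Of the 218, 23 were under 1 FPKM in WT control, and no member reached 1 FPKM only in Nlrp3-/- control. At 1 FPKM or more in all 3 WT control libraries were 194, of which 14 (7.22%) were called higher and 9 (4.64%) lower. Of all members at that level 3.86% were called higher and 0.778% lower.

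None of the 26 tested lineage genes was called, and the median of the list was -0.32 (-0.52 under median-ratio scaling). Without the fold limit 15 of the 26 were lower at a limma adjusted p under 0.05 and 2 were higher, where 14.5% of all members were lower and 33.3% higher by that rule. Csf1r, the receptor for macrophage colony-stimulating factor, was 248, 254 and 258 FPKM in WT control and 161, 167 and 165 FPKM in Nlrp3-/- control, a difference of -0.62 (SE 0.0278, limma adjusted p = 1.04e-08). Cd68, a glycoprotein of macrophage lysosomes, was 1420, 1480 and 1450 FPKM against 889, 869 and 872 FPKM (-0.73, limma adjusted p = 1.55e-09). Adgre1, which encodes F4/80, was 240, 234 and 236 FPKM against 185, 181 and 186 FPKM (-0.36, limma adjusted p = 1.78e-07). For these 3 genes the libraries did not overlap, as for 56.0% of all members, and the fold limit was not reached. Lyz2, which encodes lysozyme and had the highest level of the list, was 18500 ± 643 and 17700 ± 139 FPKM (SD, n = 3, limma adjusted p = 0.0637), and Mertk, an efferocytosis receptor, was 32.4 ± 0.172 and 34.1 ± 1.3 FPKM (adjusted p = 0.196 in limma). Lyz2 shares 96.0% of its transcript with Lyz1. Itgam, which encodes CD11b, is on 2 identifiers whose values trade between libraries, and their sum was 149, 156 and 156 FPKM against 138, 134 and 139 FPKM.

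Among the genes of alternative activation and repair, 3 of 20 tested were higher and 2 lower. Arg1, which encodes the arginine-degrading enzyme arginase 1, was 1.05, 1.23 and 1.14 FPKM in WT control and 13.3, 11.9 and 12.6 FPKM in Nlrp3-/- control, a difference of 2.67 (SE 0.052, limma adjusted p = 1.57e-11). Gas6, which encodes the ligand that bridges apoptotic cells to the receptors AXL and MERTK, moved the other way, from 275, 286 and 278 FPKM to 91.7, 89.2 and 91.4 FPKM (-1.61, limma adjusted p = 4.83e-10). Stab1, which encodes the scavenger receptor stabilin 1, was 117, 121 and 119 FPKM against 44.9, 45.5 and 46.2 FPKM (-1.37, limma adjusted p = 4.96e-11). Genes usually named together in this program therefore differed in direction. The chemokine gene Ccl22 (1.14) and the transcription factor gene Klf4 (1.11) were called higher at lower levels, and both calls were lost under median-ratio scaling. Mrc1, which encodes the mannose receptor CD206, was 95.5 ± 2.83 and 62.8 ± 1.16 FPKM (-0.6) and Chil3, which encodes the lectin Ym1, was 42.4 ± 1.38 and 75.7 ± 2.6 FPKM (SD, n = 3, 0.82), and neither was called. Retnla was listed at 0 in all 6 control libraries.

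The lipid-associated list had 1 call in 20 genes and a median of -0.24. Cd5l, which encodes a secreted inhibitor of macrophage apoptosis, was 90.2, 88.8 and 91.4 FPKM in WT control and 209, 212 and 197 FPKM in Nlrp3-/- control (1.18, limma adjusted p = 3.94e-09), and this call was lost under median-ratio scaling. Without the fold limit 13 of the 20 were lower and 2 higher at a limma adjusted p under 0.05. By that rule 14.5% of all members were lower and 33.3% higher. Spp1, which encodes osteopontin, was 4400 ± 69.6 and 2590 ± 37.3 FPKM (-0.76), and Gpnmb, a lysosomal glycoprotein, was 2340 ± 67.5 and 1310 ± 28.9 FPKM (SD, n = 3, -0.84). The lipid carrier gene Apoe was 944 ± 98.5 and 1030 ± 82.7 FPKM (SD, n = 3), with overlapping libraries.

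Inflammatory cytokine, chemokine and enzyme genes were the macrophage list with most calls, 10 of 33 tested higher and 2 lower, with a median of 0.38 (0.19 under median-ratio scaling). Cxcl5, which encodes a neutrophil-attracting chemokine, was 2.79, 2.05 and 2.61 FPKM in WT control and 24.5, 22.8 and 23.2 FPKM in Nlrp3-/- control, a difference of 2.82 (SE 0.0709, limma adjusted p = 9.14e-11). Cxcl1 was 0.579, 0.699 and 0.731 FPKM against 5.17, 5.01 and 5.36 FPKM (1.89, limma adjusted p = 2.47e-10), and Cxcl2 was 0.596, 0.8 and 0.477 FPKM against 3.59, 2.65 and 3.82 FPKM (1.42). These ligands of the receptor CXCR2, with Cxcl3, were all called higher on the FPKM as deposited. The chemokine genes Ccl3 and Ccl4 were called lower. Ccl4 was 38.0, 34.9 and 32.7 FPKM against 10.9, 12.2 and 10.8 FPKM (-1.56, limma adjusted p = 2.72e-09) and Ccl3 was 55.0, 56.2 and 56.9 FPKM against 27.4, 28.7 and 25.6 FPKM (-1.02, limma adjusted p = 1.33e-08). Ccl3 was thus only just past the limit, and without Nlrp3-/- control replicate 3 it was -0.97 and not called. Also called higher were Csf1 (9.48 ± 0.127 to 23.2 ± 0.63 FPKM), which encodes macrophage colony-stimulating factor, the monocyte chemokine gene Ccl7 (26.0 ± 1.94 to 54.6 ± 1.26 FPKM), the itaconate-producing enzyme gene Acod1 (9.13 ± 0.751 to 24.2 ± 0.762 FPKM), the prostaglandin synthesis genes Ptgs2 and Ptges, and Lif (SD, n = 3). Under median-ratio scaling the calls of Cxcl3 (0.88), Ccl7 (0.85), Ptges (0.87) and Lif (0.88) were lost, and 6 of the 33 genes were called higher and 2 lower. Without single control libraries, Cxcl3 was lost without Nlrp3-/- replicate 2 (0.91) or WT replicate 2 (0.99), Lif without Nlrp3-/- replicate 1 (0.96) or WT replicate 3 (0.97) and Ccl7 without WT replicate 3, where it came just under the limit of 1.

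The cytokines of acute inflammation were low without stimulation. Il1b was 0.235, 0.298 and 0.186 FPKM in WT control and 1.73, 1.44 and 1.22 FPKM in Nlrp3-/- control (0.99, limma adjusted p = 1.61e-07), just under the limit of 1. Tnf was 6.89, 7.83 and 7.74 FPKM against 12, 11.6 and 10.9 FPKM (0.56), and Il6 was 0.0446 ± 0.0334 and 0.425 ± 0.0612 FPKM (SD, n = 3, 0.45). In the inflammasome list Nlrp3 alone of 20 tested genes was called, and the median was -0.2. Casp1, which encodes caspase-1, was 22.8 ± 1.88 and 18.0 ± 1.44 FPKM (-0.32, limma adjusted p = 0.00182), and Pycard, which encodes ASC, was 13.9 ± 1.11 and 11.6 ± 0.872 FPKM (SD, n = 3, -0.24).

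Most interferon-stimulated genes were lower by less than the fold limit. Of the 36 tested 4 (11.1%) were called lower and 0 higher, while 0.665% of all members were called lower. The list median was -0.51 (-0.66 under median-ratio scaling). Without the fold limit 32 were lower and 2 higher at a limma adjusted p under 0.05. By that rule 14.5% of all members were lower and 33.3% higher. Oas3, which encodes a sensor of double-stranded RNA, was 8.9, 9.21 and 8.98 FPKM in WT control and 3.59, 3.57 and 3.62 FPKM in Nlrp3-/- control, a difference of -1.13 (SE 0.0291, limma adjusted p = 1.12e-10). Rsad2, which encodes the antiviral enzyme viperin, was 10.7, 10.4 and 9.5 FPKM against 4.67, 4.14 and 4.08 FPKM (-1.08, limma adjusted p = 9.65e-09). Ifit3, of a family that binds viral RNA, was 16.3, 17.1 and 16.3 FPKM against 6.96, 6.74 and 7.73 FPKM (-1.11, limma adjusted p = 6e-09). In all 3 the highest Nlrp3-/- control library was under the lowest WT control library. The libraries did not overlap, in one direction or the other, for 56.0% of all members. Ifit2 was 15.4, 12.6 and 12.6 FPKM against 5.88, 5.83 and 6.2 FPKM (-1.06), and its call was lost without WT control replicate 1. Ifit3 shares 97.4% of its transcript with Ifit3b. Irf7, which encodes the transcription factor that amplifies this program, was 10.3 ± 0.445 and 5.08 ± 0.136 FPKM (SD, n = 3, -0.9) and was not called.

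The windows before the RefSeq start sites of 3 of the 4 genes called lower are shown because interferon acts on such genes through the interferon-stimulated response element. Capitals mark the core of that element, searched on both strands as GAAA, any 2 letters and GAAA, which reads TTTC, any 2 letters and TTTC on the other strand.
Ifit3, chr19:34583279-34583528, plus strand: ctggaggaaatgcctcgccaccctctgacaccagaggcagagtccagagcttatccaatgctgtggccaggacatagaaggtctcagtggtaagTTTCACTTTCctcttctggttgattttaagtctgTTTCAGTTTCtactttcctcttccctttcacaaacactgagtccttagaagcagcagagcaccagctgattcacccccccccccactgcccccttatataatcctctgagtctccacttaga
Rsad2, chr12:26456453-26456702, minus strand: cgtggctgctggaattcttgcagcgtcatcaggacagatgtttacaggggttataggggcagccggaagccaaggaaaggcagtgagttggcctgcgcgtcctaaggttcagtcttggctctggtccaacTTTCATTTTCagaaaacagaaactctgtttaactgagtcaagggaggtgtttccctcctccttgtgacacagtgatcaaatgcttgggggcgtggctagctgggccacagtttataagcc
Oas3, chr5:120777660-120777909, minus strand: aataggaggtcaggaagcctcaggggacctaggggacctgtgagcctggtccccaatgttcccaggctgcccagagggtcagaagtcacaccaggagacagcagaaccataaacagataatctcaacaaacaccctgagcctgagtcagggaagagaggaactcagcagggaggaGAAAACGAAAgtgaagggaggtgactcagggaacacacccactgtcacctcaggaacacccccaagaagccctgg
Ifit3 had 2 matches, at 156 to 147 and 122 to 113 bases before the start, Rsad2 had 1 at 120 to 111 and Oas3 had 1 at 75 to 66. Ifit2 had 0 in the windows of both of its start sites. The motif was present in 2.98% of the 32851 windows, and it too was chosen with the results known.

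Antigen presentation and uptake genes showed few calls. None of the 11 tested genes of the MHC class II list was called, and the median was 0.13 (0.0 under median-ratio scaling). H2-Ab1, which encodes a class II chain, was 8.86, 8.28 and 7.25 FPKM against 10.8, 14.1 and 12.6 FPKM (0.56, limma adjusted p = 0.00113), and Cd74, the invariant chain gene, was 45.5 ± 1.42 and 61.8 ± 2.51 FPKM (SD, n = 3, 0.43). Among phagocytic, Fc, complement and lectin receptors 4 of 25 were called higher and 0 lower, with a median of 0.12 that was -0.07 under median-ratio scaling. Axl, which encodes a receptor for the Gas6 product, was 26.1, 25.2 and 26.3 FPKM in WT control and 75.4, 76.8 and 77.2 FPKM in Nlrp3-/- control (1.53, limma adjusted p = 2.26e-11). Marco, a scavenger receptor, was 8.38, 9.88 and 8.52 FPKM against 28.2, 26.0 and 26.8 FPKM (1.5, limma adjusted p = 1.68e-09), and the complement gene C3 was 24.0, 26.5 and 24.6 FPKM against 73.7, 75.6 and 73.6 FPKM (1.53). The receptor and its ligand gene thus lay on opposite sides, with Axl higher and Gas6 lower. Colec12 was the remaining call (1.15), and it was lost under median-ratio scaling.

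In the osteoclast-associated list 1 of 11 genes was called, with a median of 0.01 that was -0.19 under median-ratio scaling. Acp5, which encodes tartrate-resistant acid phosphatase, was 18.0, 21.1 and 18.8 FPKM against 54.1, 52.1 and 47.4 FPKM (1.36, limma adjusted p = 9.88e-09), while Ctsk, which encodes the bone-degrading cathepsin K, was 45.9 ± 2.48 and 46.1 ± 0.628 FPKM (SD, n = 3). Of 16 immediate-early and heat-shock genes only Egr1 was called, at 1.61, 1.72 and 1.76 FPKM against 7.05, 7.32 and 7.16 FPKM (1.6, limma adjusted p = 7.96e-11). Fos was 12.4 ± 0.706 and 23.1 ± 1.75 FPKM (0.85) and Atf3 was 111 ± 12.9 and 73.6 ± 1.39 FPKM (SD, n = 3, -0.58).

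**Figure D5:**
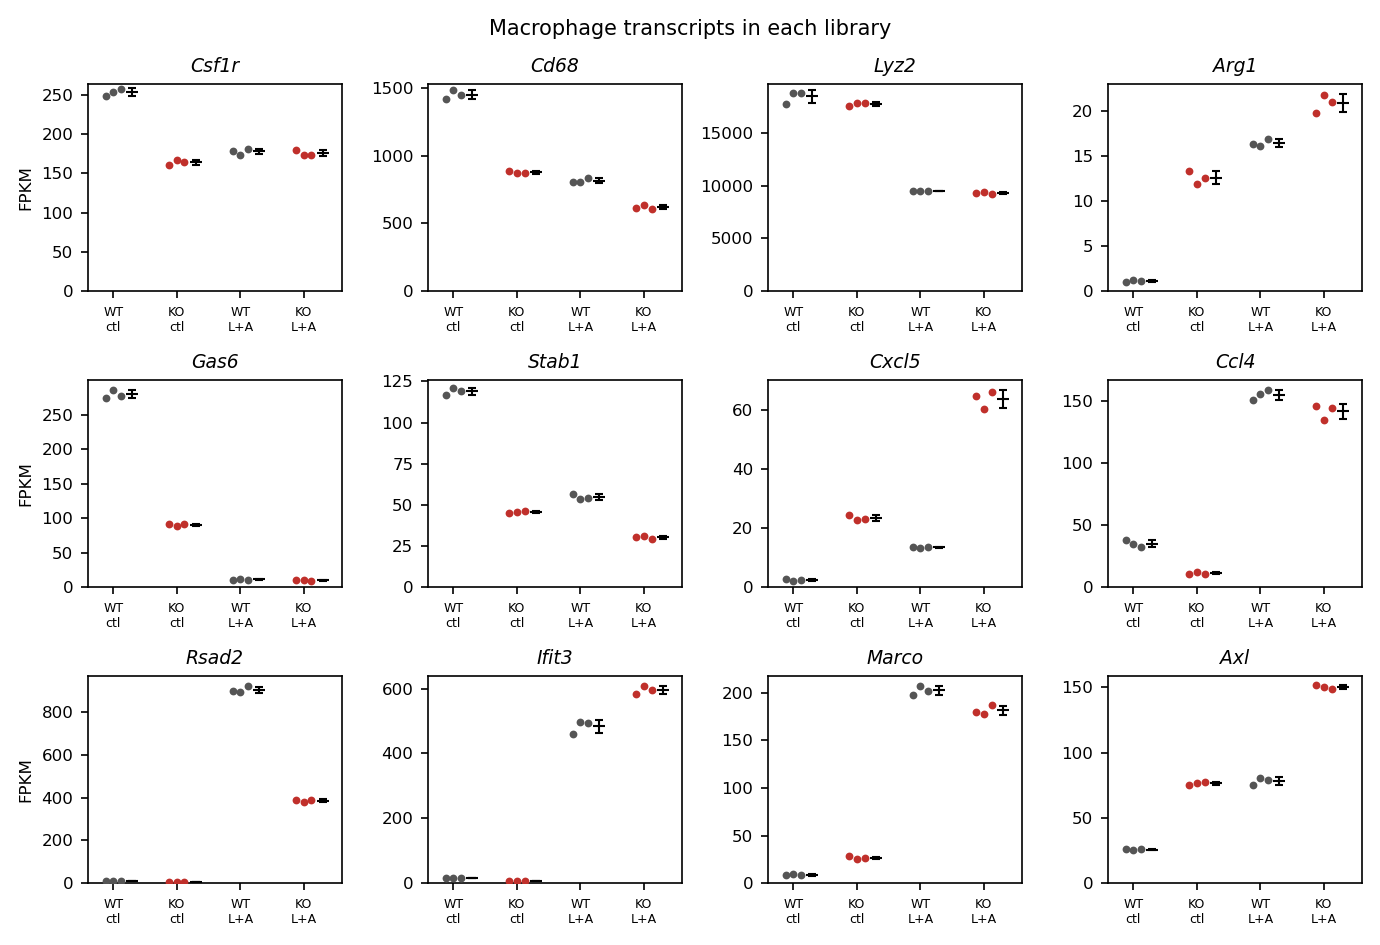
FPKM (y axis) of 12 macrophage genes in each library, by group (x axis; WT, wild type in grey; KO, Nlrp3-/- in red; ctl, control; L+A, LPS+ATP). Points are libraries and bars are the mean ± SD of 3 libraries. In the control cultures Gas6, Stab1, Ccl4, Rsad2 and Ifit3 are lower and Arg1, Cxcl5, Marco and Axl higher in Nlrp3-/-, while Csf1r and Cd68 are lower by less than the fold limit.

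Some markers of other marrow cells were higher, mostly at a few FPKM. Over the 82 listed genes 44 were tested, 18 were called higher (40.9%), 0 lower and 26 in neither direction, and the median was 0.86. Over all members 6.04% were called higher and 0.665% lower. Among the 18, Gzmb passed the filter only with the Nlrp3-/- libraries, and others such as Hbb-bs were under 1 FPKM in WT control. The count is therefore set in part by the filter. In the monocyte list Ly6c2 and Plac8 were the 2 calls among 7 tested genes, while the list summed to 333 to 403 FPKM in WT control and 295 to 310 FPKM in Nlrp3-/- control. Without the fold limit 5 of the 7 were higher and 2 lower, where 33.3% of all members were higher and 14.5% lower. Ly6c2 was 14.8, 22.8 and 15.3 FPKM in WT control and 60.0, 58.5 and 73.8 FPKM in Nlrp3-/- control (1.82, limma adjusted p = 4.9e-06), with 30.2% of its transcript matched by Ly6c1. The platelet chemokine gene Ppbp was 35, 30.0 and 29.0 FPKM against 112, 106 and 106 FPKM (1.76, limma adjusted p = 1.49e-09), and Itga2b, the integrin chain of megakaryocytes, rose from 2.92 ± 0.101 to 9.23 ± 0.909 FPKM (SD, n = 3). The groups did not overlap for either gene, as for 56.0% of all members. Of 6 tested erythroid genes 5 were called, including the globin genes, and Hbb-bs rose from 0.1 ± 0.0973 to 3.82 ± 0.663 FPKM (SD, n = 3), while Car1 and Slc4a1, markers of mature red cells, were listed at 0 in all 6. Of the endothelial genes 3 of 8 were called, with Pecam1 at 1.05 ± 0.105 and 3.5 ± 0.26 FPKM (SD, n = 3). The calls of Pecam1 and Cldn5, that of the B cell factor Ebf1 and that of the erythropoietin receptor gene Epor were lost under median-ratio scaling, that of Cldn5 also without Nlrp3-/- control replicate 3 and that of Epor also without WT control replicate 3. Of the T and NK cell genes Nkg7 and Gzmb were called, while the T cell receptor complex genes Cd3e, Cd3d and Cd3g did not reach the level for the test.

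Growth genes were close to the median of all members. Of 20 DNA replication genes Fen1, a flap endonuclease, was called lower at 14.2, 15.0 and 16.0 FPKM against 6.43, 6.86 and 5.58 FPKM (-1.14, limma adjusted p = 6.9e-08), but 78.8% of its exonic bases are overlapped by Gm10143, so its counts are uncertain. The other 19 were not called. None of the 23 mitosis genes was called, and the proliferation marker Mki67 was 15.6, 16.0 and 15.9 FPKM against 15.4, 16.4 and 16.1 FPKM, with overlapping libraries (limma adjusted p = 0.826). None of the 15 glycolysis genes was called, and Ldha, which encodes lactate dehydrogenase A, was 157 ± 7.39 and 175 ± 2.5 FPKM (SD, n = 3, 0.16). The list medians of 0.21, 0.12 and 0.12 became 0.04, -0.06 and -0.07 under median-ratio scaling.

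Several of the largest falls were in predicted genes and near copies. Tpm3-rs7 was 182, 160 and 165 FPKM in WT control and 14.1, 15.2 and 14.7 FPKM in Nlrp3-/- control (-3.44, limma adjusted p = 7.05e-13), but 98.0% of its transcript matches Tpm3. Gm42031 was 24.6, 22.2 and 21.8 FPKM against 0, 0 and 0.041 FPKM, and 87.7% of its transcript matches Gm43305, the nearest of 6 near copies. Slc22a4, which encodes a carrier of ergothioneine, was 33.4, 35.5 and 35.4 FPKM against 5.77, 5.7 and 5.77 FPKM (-2.41, limma adjusted p = 1.19e-12), and the whole transcript of Gm12220 is a near copy of it. For these genes the groups were far apart, while reads of a copy and its source cannot be told apart in FPKM.

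The same genotypes were also compared after LPS+ATP. That comparison is between other libraries than the control comparison, but both come from 1 fit and share its estimate of the spread and the filter over the 12 libraries. There 546 members were called higher in Nlrp3-/- (4.48%) and 67 lower (0.55%). Of the genes called higher in control 375 were also called higher after LPS+ATP, which is 51.0% of the control list and 68.7% of the LPS+ATP list. Of those called lower 22 were shared, which is 27.2% and 32.8% of the lists. Ppbp was the 1 gene called in opposite directions. The difference between genotypes itself differed between the treatments, by the same limits on the interaction term, for 263 members (2.16%), and that term shares its libraries with both comparisons.

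Of the 78 mesenchymal genes called higher in control, 64 were also called after LPS+ATP, where 70 of the 105 were called. Col1a1 was 81.8 ± 0.726 and 508 ± 2.48 FPKM and Acta2 was 20.2 ± 0.529 and 124 ± 0.47 FPKM (SD, n = 3) in the wild-type and Nlrp3-/- LPS+ATP cultures. Of the 37 granulocyte genes 17 were also called after LPS+ATP. Mpo was 0.0802 ± 0.0436 and 0.585 ± 0.0396 FPKM and Elane 0.239 ± 0.162 and 1.44 ± 0.345 FPKM (SD, n = 3) there, and all 6 azurophil genes had a called interaction. At levels this close to 0 FPKM a log2 difference of 1 in FPKM + 1 is hard to reach. After LPS+ATP 2 of the 6 azurophil genes were still called higher, among them Ctsg (1.5). As ratios of the group means, Nlrp3-/- was above the wild type by 25.6 times in control and 7.29 times after LPS+ATP for Mpo, by 15.8 and 6.04 times for Elane and by 14.2 and 9.43 times for Ctsg. The 6 stefin A genes were called higher after LPS+ATP as well, a count that the filter limits in the same way. Stfa1 was 0.16 ± 0.191 and 6.24 ± 0.551 FPKM there (SD, n = 3). Of the interferon-stimulated genes the list median was -0.51 in control and -0.13 after LPS+ATP. Rsad2 was lower in both (-1.08 and -1.23), while Ifit3 was lower in control (-1.11) and 0.3 higher after LPS+ATP, an interaction of 1.41 (limma adjusted p = 1.38e-07). Arg1 was 16.4 ± 0.386 and 20.9 ± 1.03 FPKM and Gas6 was 11.4 ± 0.713 and 10.2 ± 0.685 FPKM (SD, n = 3) after LPS+ATP, so that neither was called there.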

How the data were processed

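RNA of BMDMs was sequenced in 12 libraries, 4 groups of 3. The authors deposited FPKM per gene and library, with no read counts, so the depth in reads is unknown. The submitters' processing notes name GRCm39 and DESeq2 1.24.0, whose role is not given, and the aligner and counter are not given in the sources used here. Of the 55335 gene identifiers 55154 are in GENCODE M21, from which GRCm38 positions and overlaps (bedtools 2.31.1) were taken. The table had 0 unused sample columns.

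From the deposited FPKM, log2(FPKM + 1) was tested in limma 3.58.1 (R 4.3.3) for the 12622 genes with at least 1 FPKM in at least 3 of 12 libraries, with 1 mean per group and a variance trend. Among them, 12174 were autosomal, 402 X-linked (23 called higher, 1 lower), 9 Y-linked, 32 mitochondrial and 5 without a position. In a simulated control comparison of 12622 genes, 195 of 200 genes shifted by 1.5 were called, with 1 false call. The submitters' DESeq2 was not rerun because FPKM are not counts. Members and lists were chosen with earlier results of these data known, and no list was tested as a set. Genes named by rule were Nlrp3, Nnt, sex-linked checks, the 10 largest rises and 10 largest falls among calls whose libraries did not overlap, and up to 5 leading calls per macrophage, mesenchymal or granulocyte list and 3 per other list, or the most abundant members where calls were few. Other list members were named for their known roles after their values were seen. A near copy was a blastn 2.17.0 match of 95% identity covering 20% or more of a transcript. Promoter windows are from RefSeq (GRCm38.p6). Alternatives were TPM, median-ratio scaling, a pseudocount of 0.1, a filter of 5 FPKM or none, and a log2 fold limit of 2 or none. Further alternatives were no trend, the 6 control libraries alone, adjustment over autosomal genes, a replicate block, and each control library left out.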

Additional observations from a re-analysis of the deposited data

Results flagged for a closer look

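Of 125 named genes tested, 43 had a genotype difference that itself differed between the control and the LPS+ATP cultures (interaction term of the limma fit past the same limits). The interaction is the difference after LPS+ATP minus that in control, on the log2(FPKM + 1) scale, and it was negative for 35 and positive for 8. With 3 libraries a group no test for single stray libraries was run.

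Granulocyte genes had many of the negative values. The azurophil genes were Mpo (-3.58), Elane (-2.72), Ms4a3 (-2.44), Prtn3 (-2.13) and Ctsg (-1.91). Other granule and surface genes were Fpr2 (-2.35), Wfdc21 (-2.17), Fpr1 (-2.16), Lcn2 (-2.08) and Hp (-1.46), the stefins were Stfa1 (-1.47), Stfa3 (-1.43), BC100530 (-1.25) and Stfa2l1 (-1.19), and Gfi1 (-1.35), Cebpe (-1.2), Prss34 (-1.36), Prg2 (-1.19) and Ear2 (-1.08) followed. Mpo, Elane, Ms4a3, Prtn3, Ctsg, Gfi1 and Cebpe were low in both genotypes after LPS+ATP, whereas Lcn2, Fpr1, Fpr2 and Hp were above their control levels in both.

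The other negative values were those of Gm21451 (-5.29), Ppbp (-3.01), Arg1 (-2.34), Itga2b (-2.11), Ptgs2 (-1.96), Nlrp3 (-1.67), Marco (-1.66), Lox (-1.57), Cxcl2 (-1.42), Nkg7 (-1.42), Tubb1 (-1.4), Hbb-bs (-1.35), Cxcl1 (-1.32), Hbb-bt (-1.18), C3 (-1.12) and Cxcl12 (-1.04). Nlrp3 was listed at 0 in all 6 Nlrp3-/- libraries, so its value is set by the rise in the wild type.

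The positive values were those of Gm42031 (2.58), Gm28188 (1.78), the cyclin gene Ccnb2 (1.78), Gas6 (1.47), Ccl4 (1.43), Ifit3 (1.41), Fen1 (1.28) and AC164623.1 (1.08). Ccnb2 was 17.6 and 14.4 FPKM in WT and Nlrp3-/- control and 1.37 and 5.7 FPKM after LPS+ATP, so it was not called in control and was called higher in Nlrp3-/- after LPS+ATP.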

How the results depend on the processing

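Leaving out each control library in turn gave 728 to 742 members higher in Nlrp3-/- control and 81 to 89 lower, 19 to 22 macrophage genes higher and 8 to 11 lower, 78 to 81 mesenchymal and 36 to 39 granulocyte genes higher, 546 to 547 higher and 65 to 67 lower after LPS+ATP, and 260 to 268 interactions. Where a group kept 2 libraries, the pooled spread of the fit was used.

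TPM gave 1124 members higher in control, 1017 higher and 106 lower after LPS+ATP and 487 interactions. A pseudocount of 0.1 gave 1230 higher and 147 lower in control, 16 macrophage genes lower, 1217 higher and 131 lower after LPS+ATP and 614 interactions. Median-ratio scaling gave 139 lower in control, 12 macrophage genes higher and 17 lower, and 118 lower after LPS+ATP. A filter of 5 FPKM, which tests fewer genes, gave 442 higher and 53 lower in control. Without the fold limit 4050 were higher and 1768 lower in control, 67 macrophage genes were higher and 97 lower, 4357 were higher and 1539 lower after LPS+ATP, and 3386 interactions passed. A log2 fold limit of 2 left 109 higher and 8 lower in control, and 40 higher and 6 lower after LPS+ATP. It left 2 macrophage genes higher and 1 lower, 31 mesenchymal and 19 granulocyte genes higher, and 24 interactions. Apart from the fold limits, whose construction sets the count, the cause was not tested. Of 125 named genes tested, 2 reversed, neither of them called: Aldoa was -0.1 under median-ratio scaling and Ninj1 was 0.09 without WT control replicate 2 (-0.13 to 0.09 over the libraries left out). Median-ratio scaling ended 8 calls among these 125 genes.

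With the replicate number as a block, 736 members were higher and 80 lower in control, 20 macrophage genes were higher and 9 lower, 78 mesenchymal and 37 granulocyte genes were higher, 545 were higher and 68 lower after LPS+ATP, and 259 interactions passed. It changed no call among the 125 genes. Same-numbered control libraries did not deviate together (r -0.0382, 0.0208 and -0.0565), so the numbers were not taken as pairs.

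The depth in reads is not known from FPKM, and the differences of genes under 1 FPKM are understated by the pseudocount. Among 5982 members over 5 FPKM in both control groups, 175 had an SD over 30 percent of the mean in a group, so the spread differs between genes. With 3 libraries a group and no statement of separate mice, the errors describe these libraries.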

Other observations

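Cytotoxic and mast-cell-type proteases are encoded in a cluster on chromosome 14. A list of genes of this kind was looked at after their values were seen. Of 14 listed 7 were tested, all of them on chromosome 14. Of these, Gzmb, Gzmd, Gzmg and Mcpt8 passed the filter on low values only with the Nlrp3-/- libraries, and Gzmb, Gzmd and Gzmg were under 1 FPKM in every wild-type library, so no count over the list is read. Gzme was 0.813, 0.678 and 1.36 FPKM in WT control and 16.1, 14.7 and 14.6 FPKM in Nlrp3-/- control. Gzmc was 0.775, 0.416 and 0.595 FPKM against 8.67, 8.07 and 8.15 FPKM, and Gzmb was 0.139, 0.0304 and 0.114 FPKM against 4.02, 4.06 and 3.13 FPKM. Ctsg and Mcpt8, described among the granulocyte genes, are members of the same cluster.

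In a list of serine, one-carbon and amino acid supply genes, also chosen after its values were seen, 13 of 29 tested genes were called higher in control, 0 lower and 16 in neither direction, while 6.04% of all members were called higher. Because of that choice the count is a description only. Phgdh, which encodes the first enzyme of serine synthesis, was 3.71, 4.04 and 4.81 FPKM in WT control and 23.3, 23.9 and 25.1 FPKM in Nlrp3-/- control (2.28, limma adjusted p = 9.32e-10). Aldh1l2, a mitochondrial folate enzyme gene, was 1.09, 1.17 and 1.28 FPKM against 10.8, 10.9 and 9.84 FPKM (2.4), and Asns, which encodes asparagine synthetase, was 7.44, 7.53 and 7.14 FPKM against 23.6, 23.6 and 23.8 FPKM (1.56). Slc7a5, which encodes an importer of large neutral amino acids, rose from 4.6 ± 0.922 to 21 ± 0.469 FPKM (SD, n = 3). Atf4, which encodes the factor known to drive many of these genes, was 34.3, 51.7 and 49.4 FPKM against 47.1, 70.2 and 68.9 FPKM (0.45, limma adjusted p = 0.0782) and was not called.

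Among abundant genes outside the lists, Selenop, which encodes the selenium carrier of plasma, was 788 ± 34.8 FPKM in WT control and 308 ± 11.8 FPKM in Nlrp3-/- control (-1.35), Anpep, which encodes the aminopeptidase CD13, was 286 ± 5.63 and 137 ± 1.97 FPKM (-1.06), and Trf, which encodes transferrin, was 61.1 ± 0.617 and 135 ± 8.3 FPKM (SD, n = 3, 1.13).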
